A study of Mus musculus with 28 samples.

Results

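The livers of mice given tropifexor at a mid dose were compared with the livers of mice given it at a low dose. For each gene, the change from vehicle at the low dose was subtracted from the change from vehicle at the mid dose, both on the log2 scale. All genes that could be tested at both doses entered the comparison, 15368 of the 47719 genes listed, and the 2 dose groups held 8 of the 28 liver samples of the series, 4 in each.

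All animals were male C57BL/6 mice of about 6 weeks of age when their diets began, and the labels name no genetic change in any group. Mice of the dose and vehicle groups were fed for 26 weeks on a diet that took 40% of its energy from fat and held 22% fructose and 2% cholesterol. Such feeding is used to bring on NASH, a steatohepatitis in which fat, inflammation and fibrosis build up together. They were then dosed by mouth every day for 4 weeks. The dose and vehicle groups share the diet, so no value below describes tropifexor in a lean liver. Tropifexor (LJN452) was given at 0.1 mg/kg in the low, 0.3 mg/kg in the mid and 0.9 mg/kg in the high group, taking the 3 doses that the labels list to rise with the names of the groups, a pairing the labels leave unsaid. The vehicle group is named by its sample titles, although its treatment field lists the drug, and a lean group on a diet with 10% of its energy from fat served as an outside control. The labels number 4 replicates in each group, with nothing that ties them to batches.

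Tropifexor activates FXR (Nr1h4), the nuclear receptor that senses bile acids in hepatocytes and in the gut. In the liver FXR switches on Nr0b2, which encodes the repressor SHP, and the exporters that empty bile acids from the hepatocyte, and with the gut hormone FGF15 it shuts down Cyp7a1 and Cyp8b1, which make and shape the bile acids. FXR agonists are also known for their effects on liver lipids, on inflammation and on the stellate cells that lay down scar matrix, which is why they have been tried in steatohepatitis.

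Gene levels are FPKM, fragments counted per length of transcript and scaled to the size of the library, with 1 value for each group and none for each mouse. Each dose is therefore given with the vehicle value of its own table, because the tables were scaled separately: the same vehicle group stood 0.194 (log2) lower in the mid-dose table than in the low-dose table. The difference between doses is called where a normal test of it, adjusted by the Benjamini-Hochberg method over all 15368 genes, gave an adjusted p under 0.05. The error behind that test rests on the deposited statistics, and it decides how many genes are called: 1577 with an error scaled to the deposited p-values and 65 with the wider error that the statistics imply without scaling. The low-dose group carried the larger error, with a median error of a group value of 0.237 (log2) against 0.146 for the mid-dose, 0.145 for the high-dose and 0.156 for the vehicle group. These errors were solved from the deposited statistics and are not a measured spread between mice. The depth of the libraries is unknown. Hepatocyte markers were high at both doses, with Apoa1 at 9875 FPKM in the low-dose and 8613 FPKM in the mid-dose group and Ttr at 1754 and 2319 FPKM.

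The livers of the mid-dose mice held less RNA of inflammation, macrophages, scar matrix and bile duct cells than those of the low-dose mice, and more RNA of a number of lipid synthesis and male-type hepatocyte genes. Of the 15368 genes tested, 567 (3.69%) were higher and 1010 (6.57%) were lower at the mid dose, 10.3% in all, and 2869 had an unadjusted p under 0.05. The shares of 3.69% and 6.57% over all genes are the ones to set beside each list count below that uses the rescaled error. The median difference over all genes was 0.02 (quartiles -0.36 and 0.31), and the median was 0.96 among the genes called higher and -1.40 among those called lower. Differences of at least 4-fold were called for 53 genes higher and 169 lower, and of at least 8-fold for 6 and 31. With the error not rescaled, 12 genes (0.0781%) were higher and 53 (0.345%) lower. Of these 65 genes, 9 had a deposited q over 0.5 at both doses in the authors' deposited tables (8 small RNAs or gene models and Mup-ps17), so that the error implied for them conflicts with the deposited p, and without them 7 were higher and 49 lower. Among the 1577 genes, 35 had such a q in the authors' deposited tables, and 546 higher and 996 lower genes were left without them.

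**Figure D1:**
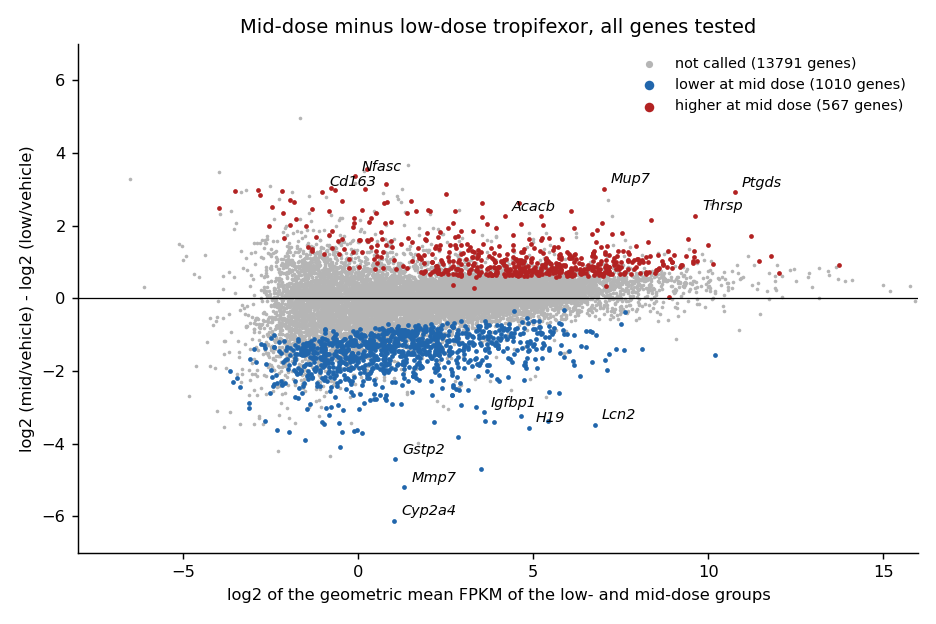
Each point is 1 of the tested genes, with its level (log2 of the geometric mean FPKM of the dose groups) across and the difference between the mid-dose and the low-dose change from vehicle (log2) up, and called genes are coloured by direction. The 1010 genes called lower spread farther from 0 than the 567 called higher, and 22 genes with differences beyond the axis are not drawn.

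The doses differed in how many genes were called against vehicle. The median error of the change from vehicle was 0.298 (log2) at the low and 0.228 at the mid dose. A change of the same size was thus less readily called at the low dose, and the counts depend on that error too. The authors' deposited table of the low dose called 1813 genes against vehicle (11.2%), 973 higher (6.03%) and 840 lower (5.2%), and the authors' deposited table of the mid dose called 4319 (27.5%), 1849 higher (11.8%) and 2470 lower (15.7%). By the q-values of the authors' deposited tables, 683 of the 1010 genes lower at the mid dose than at the low dose were called against vehicle at the mid dose only, 111 at the low dose only, 171 at both and 45 at neither. Of the 567 higher genes, the authors' deposited tables called 249 against vehicle at the mid dose only, 115 at the low dose only, 147 at both and 56 at neither. Both doses are set against the same vehicle mice, so their changes from vehicle are not independent of each other.

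Most of the known targets of FXR were not called between the doses, but a larger share was called than the 10.3% of all genes. Of 26 tested genes known to be induced by FXR, 4 were higher at the mid dose, against 3.69% of all genes. Of the others, 1 was lower, against 6.57% of all genes, and 21 were not called. The median difference was 0.39, with 21 differences above 0 and 5 below. Nr0b2 stood at 118 FPKM in the low-dose group against 32.4 in vehicle, and at 166 FPKM in the mid-dose group against 28.3 in vehicle. That is a rise of 1.87 (log2, SE 0.18) at the low dose and of 2.55 (SE 0.13) at the mid dose, and the difference of 0.69 (95% interval 0.26 to 1.11) was called with the rescaled error and not with the other. Slc51b, a subunit of the exporter that returns bile acids to the blood, stood at 150 FPKM against 3.60 at the low dose and at 203 against 3.15 at the mid dose. Its difference of 0.63 (interval -0.16 to 1.42) was not called. The partner subunit Slc51a was not tested.

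Abcb11, the pump that moves bile salts into bile, stood at 308 FPKM against 165 in vehicle at the low dose and at 653 against 144 at the mid dose. Its difference of 1.28 (interval 0.32 to 2.23) missed the threshold with an adjusted p of 0.0758 by the normal test with Benjamini-Hochberg adjustment. Exons of Abcb11 and Slc51b overlap a gene on the other strand, and no source used here says whether strand entered the counting. Akr1b7, an aldo-keto reductase, stood at 42.4 FPKM against 0.906 and at 44.1 against 0.793, with a difference of 0.25 (interval -0.45 to 0.94). Fgf21, a fasting hormone of the liver, was the target that was lower at the mid dose: it stood at 53.2 FPKM against 5.64 at the low dose and at 18.9 against 4.94 at the mid dose, a difference of -1.30 (interval -1.84 to -0.77). Ces2a, a carboxylesterase, stood at -0.29 (SE 0.19) from vehicle at the low dose and at 0.90 (SE 0.14) at the mid dose, and its difference of 1.20 was called. FXR itself was not called: Nr1h4 stood at 23.8 FPKM against 66.8 at the low dose and at 24.1 against 58.4 at the mid dose. Of 18 genes for FXR, its partners and its repressors, 3 were higher at the mid dose, namely Nr0b2, the FGF co-receptor Klb (0.71) and the xenobiotic receptor Nr1i2 (0.69), and none was lower.

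**Figure D2:**
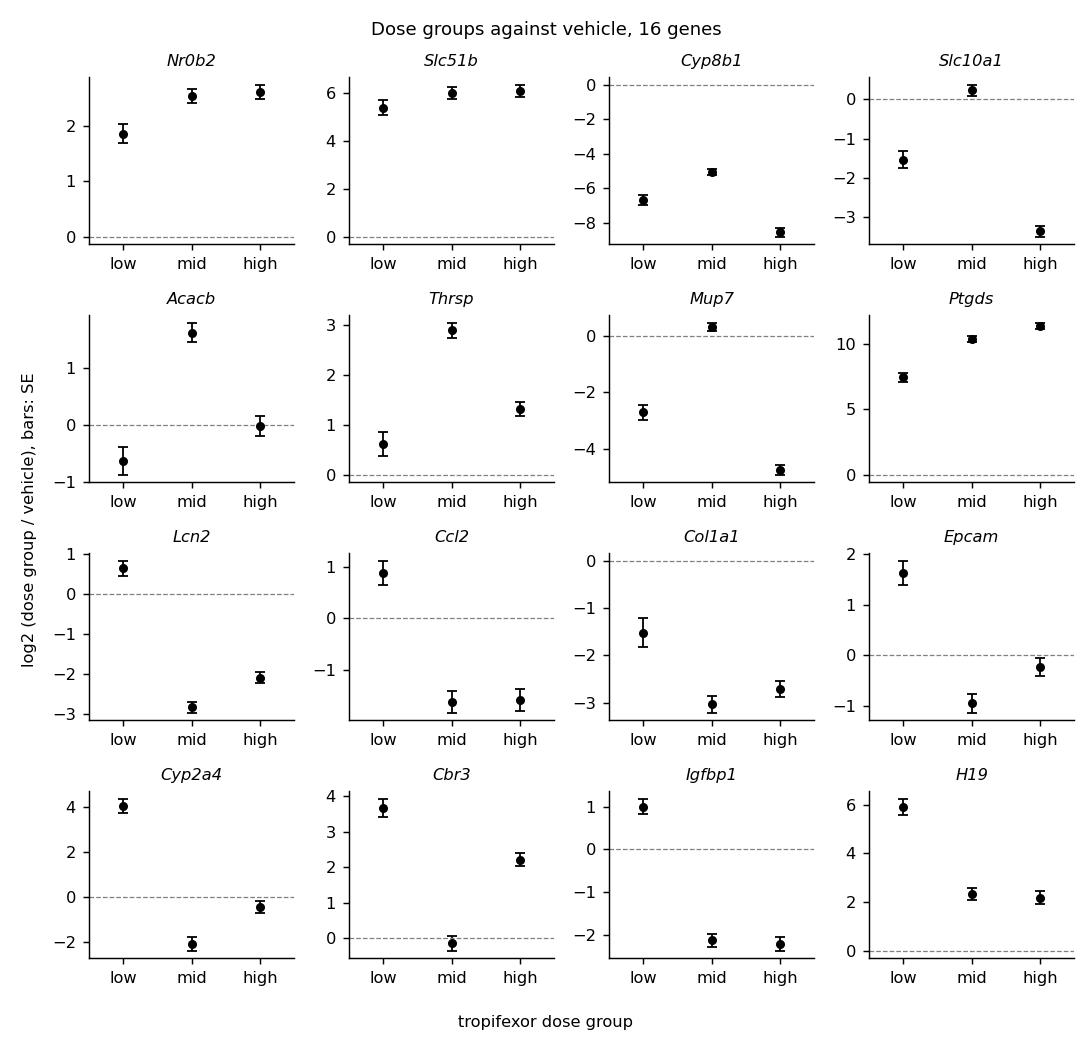
Each panel shows 1 gene, with the tropifexor dose group across and its log2 change from vehicle up, bars giving the SE, and a dashed line at vehicle; the vertical scale differs between panels. Cyp8b1, Slc10a1 and Mup7 stand higher at the mid dose than at either other dose, while Lcn2, Ccl2 and Igfbp1 stand above vehicle at the low dose and below it at the mid and high doses.

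Several genes that make bile acids were higher at the mid dose than at the low dose. Of 18 genes of bile acid synthesis and conjugation, 8 were higher at the mid dose, none was lower and 10 were not called, with a median difference of 0.75. Cyp8b1, the 12-alpha-hydroxylase that sets the share of cholic acid, stood at 0.969 FPKM against 99.5 in vehicle at the low dose and at 2.65 against 86.8 at the mid dose, a difference of 1.65 (interval 0.99 to 2.31). Both dose groups lay far below vehicle on the log2 scale, at -6.68 (SE 0.29) and -5.04 (SE 0.17), and the high-dose group lay lower than both at -8.55. Cyp7a1, the rate-limiting enzyme, stood at 3.02 FPKM against 54.6 and at 5.06 against 47.6, and its difference of 0.94 (interval -0.42 to 2.29) was not called.

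The other called genes of the group spanned the alternative pathway and the later steps. Cyp7b1 (0.87, interval 0.42 to 1.32) and Cyp27a1 (0.99, interval 0.45 to 1.53) serve the alternative pathway, and Akr1d1 (1.12) reduces the steroid ring. Slc27a5 (1.18) and Baat (0.68) conjugate the finished bile acids, Amacr (0.65) acts on the side chain, and Cyp2c70 (0.79) makes the muricholic acids of the mouse. At the low dose Cyp27a1 stood at -0.33 (SE 0.22) against vehicle and at the mid dose at 0.66 (SE 0.17). It was not among the genes called against vehicle on opposite sides at the 2 doses. None of these 8 genes was called with the error not rescaled.

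Some carriers that take bile acids up into the hepatocyte were higher at the mid dose. Slc10a1, the sodium-dependent bile acid carrier NTCP, stood at 89.0 FPKM against 257 in vehicle at the low dose and at 263 against 225 at the mid dose, a difference of 1.76 (interval 1.26 to 2.27). Its change from vehicle was -1.53 (SE 0.22) at the low, 0.23 (SE 0.14) at the mid and -3.35 at the high dose, so the mid-dose group alone lay near vehicle. The organic anion carriers Slco1a1 (1.58), Slco2b1 (1.29) and Slco1b2 (1.02) were also higher at the mid dose. Abcc4, an exporter of the membrane facing the blood, was lower: it stood at 3.11 FPKM against 0.792 at the low dose and at 0.329 against 0.693 at the mid dose, a difference of -3.05 (interval -3.65 to -2.45) that was called with either error. In all 4 of 15 transport genes were higher, 1 was lower and 10 were not called.

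Members of both branches of lipid synthesis were higher at the mid dose. Of 18 genes of fatty acid synthesis, 10 were higher at the mid dose, 1 was lower and 7 were not called, and the median difference was 1.21. Thrsp, a lipogenic regulator known as Spot 14, stood at 385 FPKM against 251 at the low dose and at 1631 against 219 at the mid dose, a difference of 2.28 (interval 1.71 to 2.85). Acacb, the acetyl-CoA carboxylase that makes the malonyl-CoA that restrains fatty acid oxidation, stood at 8.83 FPKM against 13.7 and at 37.1 against 12.0, a difference of 2.26 (interval 1.68 to 2.84). These were the members of the group that were called with either error.

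Fasn, the fatty acid synthase, stood at 167 FPKM against 272 at the low dose and at 655 against 237 at the mid dose (difference 2.16, interval 0.90 to 3.43). Acly (1.88), Acss2 (2.08) and the glycolytic enzyme Pklr (1.95) were higher as well, the last 2 with exons that overlap another gene. Scd1, the stearoyl-CoA desaturase, stood at 467 FPKM against 6412 at the low dose and at 2460 against 5611 at the mid dose, and its difference of 2.59 (interval 0.60 to 4.58) was not called. Srebf1, the master regulator of the pathway, had a difference of 1.47 (interval 0.43 to 2.52) and was not called either, while the carbohydrate-sensing regulator Mlxipl was higher (1.12). Scd2, a desaturase isoform, was the member that was lower (-1.45). The median change from vehicle of the group was -0.56 at the low, 0.43 at the mid and -0.43 at the high dose.

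The median of the cholesterol synthesis genes stood above vehicle at both doses. Of 26 genes, 9 were higher at the mid dose, none was lower and 17 were not called, with median changes from vehicle of 1.14 at the low, 2.06 at the mid and 1.46 at the high dose. In the authors' deposited table of the low dose 16 of them were called above vehicle, and in the authors' deposited table of the mid dose 23. Fdps, which makes farnesyl diphosphate, stood at 71.9 FPKM against 34.2 at the low dose and at 150 against 30.0 at the mid dose (difference 1.25, interval 0.65 to 1.85). Nsdhl (1.04), Sc5d (1.01) and Acat2 (0.98) were also higher. The squalene epoxidase Sqle (0.46, interval -0.05 to 0.97) was not called. No cholesterol gene was called with the error not rescaled, and none of 15 genes of cholesterol efflux and LXR was called by the normal test, with 2 of them at an unadjusted p under 0.05. An alternative error, from group variances solved over the deposited tables without the shared vehicle, called 2 of these, 1 in each direction.

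Some genes of fat storage and of fatty acid oxidation were lower at the mid dose. Of 20 lipid droplet genes, 3 were lower at the mid dose, none was higher and 17 were not called, while the group variances called 4 lower and 2 higher. Their median difference was -0.03, with 9 differences above 0 and 11 below. Cidec, a droplet fusion protein of steatotic liver, stood at 53.1 FPKM against 87.3 at the low dose and at 14.9 against 76.3 at the mid dose (difference -1.64, interval -2.18 to -1.09), and Fabp4 (-0.90) and Hilpda (-1.11) were lower too. Cidea, its relative, stood at 0.448 FPKM against 23.5 and at 0.0356 against 20.6, with a wide interval for its difference of -3.46 (-7.60 to 0.68). Lpl, the lipoprotein lipase of the adipose tissue list, stood at 37.8 FPKM against 40.2 at the low dose and at 6.87 against 35.2 at the mid dose, a difference of -2.27 called with either error. Of the 3 adipose genes tested, Lpl was lower, Car3, a carbonic anhydrase, was higher (0.98, interval 0.40 to 1.56) and Cfd was not called (-2.25, interval -3.84 to -0.67). The defining adipose genes Adipoq, Lep, Plin1, Retn and Cfd were below 1 FPKM at both doses, and the summed level of the list was -2.69 from vehicle at the low and -1.94 at the mid dose. Lpl gave 37.8 of the summed 235 FPKM at the low dose and 6.87 of 346 at the mid dose. The sum was thus mostly Car3 and says little about the defining adipose genes.

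Of 28 genes of fatty acid oxidation and PPAR alpha, 9 were lower, 1 was higher and 18 were not called. Their median difference was 0.08, with 17 differences above 0 and 11 below. The omega-hydroxylase Cyp4a14 stood at 30.9 FPKM against 51.1 at the low dose and at 3.43 against 44.7 at the mid dose, a difference of -2.98 (interval -3.47 to -2.49) called with either error. Cyp4a10 (-1.36), Cyp4a31 (-2.08), Cyp4a32 (-0.92), Acot1 (-1.01), Acot2 (-1.21), Vnn1 (-0.82) and Angptl4 (-0.80) were lower as well, and Fgf21 belongs to this list too. The Cyp4a genes are close relatives whose reads may be shared. The enzymes of mitochondrial and peroxisomal beta-oxidation were not called, among them Cpt1a (0.07, interval -0.42 to 0.56). Pdk4, a kinase that shuts off pyruvate oxidation, was the member that was higher (1.05).

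Some genes of glucose production and handling were higher at the mid dose, none of them with the error not rescaled. Of 17 tested, 6 were higher, 1 was lower and 10 were not called. G6pc, the glucose-6-phosphatase that releases glucose from the liver, stood at 12.5 FPKM against 78.4 at the low dose and at 36.7 against 68.4 at the mid dose (difference 1.75, interval 1.28 to 2.22). Pygl (1.31), Fbp1 (0.99), Ppp1r3b (0.90) and Slc37a4 (0.73) were higher too. Igfbp1, a secreted binder of insulin-like growth factors, was the member that was lower. It stood at 37.9 FPKM against 18.9 in vehicle at the low dose and at 3.77 against 16.6 at the mid dose, on opposite sides of vehicle, and its difference of -3.13 (interval -3.60 to -2.67) was called with either error.

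**Figure D3:**
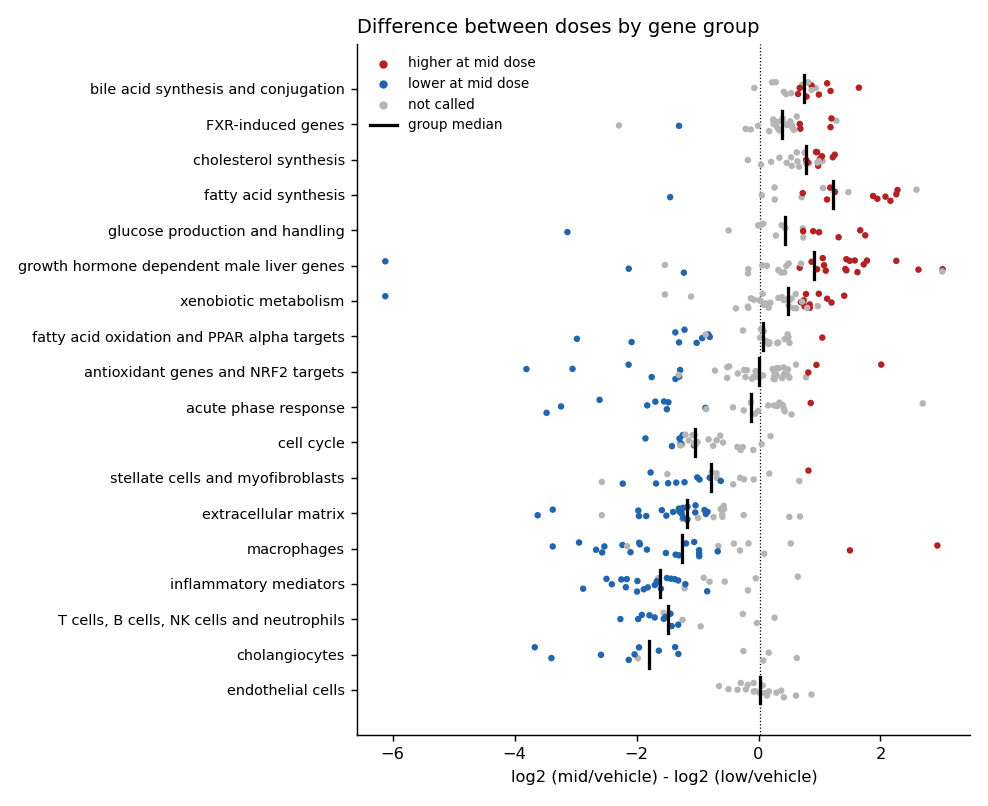
Each point is 1 tested member of a gene group, placed by the difference between the mid-dose and the low-dose change from vehicle (log2), with called members coloured, the group median as a black bar and the median of all genes (0.02) as a dotted line. Among the groups drawn, the medians run from 1.21 for fatty acid synthesis to -1.80 for cholangiocytes.

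Genes that depend on growth hormone, most of them male-type, were higher at the mid dose. Of 32 tested, 17 were higher, 3 were lower and 12 were not called, and their median change from vehicle was -0.81 at the low, -0.01 at the mid and -0.73 at the high dose. Mup7, a major urinary protein that male mice secrete as a scent signal, stood at 48.5 FPKM against 315 at the low dose and at 343 against 274 at the mid dose, a difference of 3.02 (interval 2.41 to 3.62) called with either error. Mup20 stood at 1404 FPKM against 2561 and at 4060 against 2238 (difference 1.73). Mup genes and pseudogenes took up 6 of the 15 leading places among the genes higher at the mid dose: Mup-ps18 (3.55), Mup-ps17 (3.16), Mup7, Mup5 (2.99), Mup16 (2.87) and Mup17 (2.69). They are near-identical copies, so how reads were split among them is uncertain and they do not count as independent genes. Mup-ps17 had a q of 0.844 at the mid and 0.623 at the low dose in the authors' deposited tables, in conflict with the error that calls it.

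Elovl3, a fatty acid elongase of male liver, stood at 18.1 FPKM against 30.7 at the low dose and at 75.5 against 26.8 at the mid dose (difference 2.26, interval 1.76 to 2.76). Cyp2u1 (2.62), Cyp4a12b (1.78), Cyp4a12a (1.42), Cyp2d9 (0.96) and the growth hormone receptor Ghr (1.05) were higher as well. Hsd3b5, a steroid enzyme of male liver, stood at 0.892 FPKM against 8.22 at the low dose and at 6.28 against 7.16 at the mid dose, although its difference was not called. The lower members were Cyp2a4, Prom1 (-2.13) and the signalling inhibitor Socs2 (-1.22), and Cyp2a4 is a gene of female rather than of male liver. Cyp2a4, a steroid 15-alpha-hydroxylase, had the largest difference of all genes named here. It stood at 18.1 FPKM against 1.11 in vehicle at the low dose and at 0.228 against 0.978 at the mid dose. Its ratio to vehicle was 69.6-fold higher at the low dose than at the mid dose (difference -6.12, interval -7.00 to -5.24). Cyp2a4 was under 1 FPKM in the mid-dose group and in its vehicle, with no pseudocount, so the fold is uncertain in size. Its gene is at chromosome 7, 26304421 to 26315088 (GRCm38), where it has the close relative Cyp2a5 (-1.11, interval -2.01 to -0.20, not called) and an overlapping gene on the other strand.

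**Figure D4:**
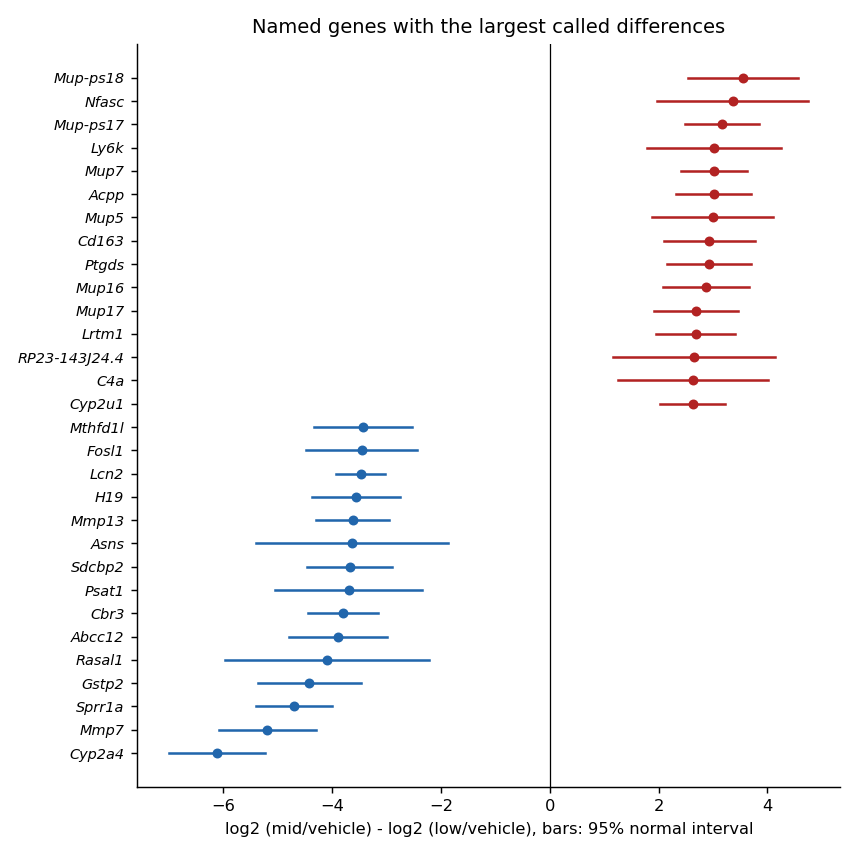
The 15 named genes with the largest positive and the 15 with the largest negative called difference are listed, with the difference between the mid-dose and the low-dose change from vehicle (log2) across and bars giving the 95% normal interval. Cyp2a4 leads the lower side at -6.12, and Mup genes and pseudogenes hold 6 places on the higher side.

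Other leading genes on the higher side came from no list. Ptgds, the prostaglandin D synthase, stood at 669 FPKM against 3.88 in vehicle at the low dose and at 4423 against 3.39 at the mid dose, a difference of 2.92 (interval 2.15 to 3.69), with changes from vehicle of 7.43, 10.35 and 11.36 at the low, mid and high dose. Acpp, an acid phosphatase, stood at 0.433 FPKM against 1.49 and at 3.06 against 1.302 (difference 3.01). Nfasc (3.37), Lrtm1 (2.68) and Ly6k (3.02) were among the leading genes at levels under 3 FPKM. C4a, a complement component with a near-identical neighbour, had a difference of 2.63 (interval 1.26 to 4.01).

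Chemokines, cytokines and other inflammatory mediators were lower at the mid dose. Of 28 tested, 20 were lower at the mid dose, none was higher and 8 were not called, against 6.57% of all genes lower, and the median difference was -1.62. The median change from vehicle was 0.39 at the low, -1.25 at the mid and -1.06 at the high dose. In the authors' deposited table of the low dose 5 were called above vehicle and none below, and in the authors' deposited table of the mid dose 3 above and 22 below. Ccl2, the chemokine that draws monocytes, stood at 17.7 FPKM against 9.62 at the low dose and at 2.75 against 8.41 at the mid dose, a difference of -2.49 (interval -3.10 to -1.88) that was called with either error.

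Other chemokines showed the same order of doses. Ccl7 (-2.88), Ccl4 (-2.25), Ccl3 (-1.99), Ccl5 (-1.60), Cxcl9 (-1.82) and Cxcl10 (-1.99) were lower at the mid dose, and so were the cytokine Tnf (-2.18), the interleukin 1 receptor antagonist Il1rn (-2.16), the receptor Tlr2 (-1.88) and the adhesion molecules Icam1 (-1.70) and Vcam1 (-1.66). Cxcl1, a chemokine for neutrophils, stood below vehicle at both doses, at 9.89 FPKM against 14.7 and at 3.05 against 12.8 (difference -1.50, interval -2.06 to -0.95). Ccl9 (-0.17, interval -1.10 to 0.76) and Il18 (0.64, interval 0.12 to 1.17) were not called. With the error not rescaled, Ccl2 and Icam1 were the mediators called.

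The promoters of 4 of these lower genes are shown because they carry a site for NF-kB, the factor known to drive chemokines and its own inhibitor Nfkbia (-0.84). The sequences are the 250 bases before the start of the gene, 5′ to 3′ on the strand of the gene, from RefSeq (GRCm38.p6), with the matches in capitals.
Cxcl1, chr5:90890995-90891244, plus strand: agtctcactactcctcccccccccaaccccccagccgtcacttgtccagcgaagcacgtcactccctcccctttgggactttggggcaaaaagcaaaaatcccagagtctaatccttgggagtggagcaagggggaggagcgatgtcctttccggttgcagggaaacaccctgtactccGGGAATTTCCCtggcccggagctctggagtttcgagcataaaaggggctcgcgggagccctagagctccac
Cxcl2, chr5:90903649-90903898, plus strand: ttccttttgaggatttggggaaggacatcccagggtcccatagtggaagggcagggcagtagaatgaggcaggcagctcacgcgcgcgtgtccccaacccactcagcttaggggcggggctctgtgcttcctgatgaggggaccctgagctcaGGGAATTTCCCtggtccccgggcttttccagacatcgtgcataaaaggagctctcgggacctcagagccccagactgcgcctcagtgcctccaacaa
Cxcl10, chr5:92348890-92349139, minus strand: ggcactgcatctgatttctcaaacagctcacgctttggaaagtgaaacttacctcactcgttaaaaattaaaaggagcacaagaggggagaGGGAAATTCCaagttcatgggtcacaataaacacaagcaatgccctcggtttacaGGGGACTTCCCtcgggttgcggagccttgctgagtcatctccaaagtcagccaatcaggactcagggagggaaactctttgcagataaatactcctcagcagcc
Nfkbia, chr12:55492648-55492897, minus strand: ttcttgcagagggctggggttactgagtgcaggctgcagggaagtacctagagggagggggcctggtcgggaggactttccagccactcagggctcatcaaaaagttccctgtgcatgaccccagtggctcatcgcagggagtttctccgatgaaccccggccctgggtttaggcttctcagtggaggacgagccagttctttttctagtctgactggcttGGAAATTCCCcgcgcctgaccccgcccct
In Cxcl1 the match begins 71 bases and in Cxcl2 97 bases before the start, and the run is the same in both, GGGAATTTCCC. Cxcl10 has 2 matches, at 159 and 104 bases, and Nfkbia has 1 at 29 bases. Cxcl2 stood at 1.14 FPKM against 0.832 at the low dose and at 0.189 against 0.726 at the mid dose (difference -2.41, interval -4.09 to -0.72).

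Such a site was found in 8.46% of all 32851 promoters, counting windows of 250 bases before to 50 after the start and both strands. It was found in 6 of the 13 lower mediators that matched a promoter, namely Cxcl1, Cxcl2, Cxcl10, Nfkbia, Tlr2 and Tnfaip3. The mediators that were not called were not counted for comparison. NF-kB is known to drive genes of this list, so its share of sites says nothing about the difference between doses. Promoters were matched for 10487 of the 15368 tested and 1097 of the 1577 called genes. The core of the antioxidant response element (TGACNNNGC, both strands) was found in 12.4% of promoters and in 2 of the 5 lower antioxidant genes that matched one, Abcc4 and Srxn1, and in none of 3 higher ones. The inverted repeat of the nuclear receptor hexamer with a spacer of 1 base, the sequence FXR is known to bind, was found in 0.0365% of promoters. It was found in none of those of 392 genes called higher, 705 called lower and 22 FXR-induced genes. Only 2 of 10477 tested gene symbols with a promoter held it, so its absence from these genes is not informative. These matches are counts of letters in short windows, and binding was not measured.

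Macrophage genes were lower at the mid dose. Of 28 tested, 19 were lower, 2 were higher and 7 were not called, with a median difference of -1.25. With the error not rescaled, 5 were lower and none was higher. Gpnmb, a glycoprotein of lipid-laden macrophages, stood at 17.3 FPKM against 21.3 at the low dose and at 2.39 against 18.6 at the mid dose (difference -2.66, interval -3.24 to -2.09). Trem2, a lipid receptor of the same cells, stood at 10.97 FPKM against 13.4 and at 2.24 against 11.8 (difference -2.10, interval -2.66 to -1.54). Lgals3 (-2.23), Cd63 (-2.53), Mmp12 (-3.38), the monocyte receptor Ccr2 (-1.83), Cd68 (-1.19) and the F4/80 gene Adgre1 (-1.06) were lower, as were the complement genes C1qa (-0.97), C1qb (-0.98) and C1qc (-0.97).

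Several markers of resident Kupffer cells were not called. Timd4 stood at 1.55 FPKM against 1.85 at the low dose and at 1.44 against 1.61 at the mid dose (difference 0.09, interval -0.59 to 0.78), and Clec4f (0.53, interval -0.12 to 1.18), Vsig4 (-0.30, interval -0.78 to 0.17) and Mrc1 (-0.16, interval -0.63 to 0.30) were not called. Cd163, a haemoglobin scavenger receptor of resident macrophages, was higher at the mid dose: it stood at 0.188 FPKM against 0.892 at the low dose and at 1.25 against 0.777 at the mid dose, on opposite sides of vehicle (difference 2.93, interval 2.10 to 3.77). The difference between resident and other macrophage genes was not tested. The summed level of the 28 genes was 0.03 (log2) from vehicle at the low dose and -1.06 at the mid dose, and in bulk liver fewer cells of a type and less RNA per cell cannot be told apart.

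Of 16 tested genes of T cells, B cells, NK cells and neutrophils, 10 were lower, none was higher and 6 were not called. With the error not rescaled none of them was called. The lean-control tables called 4 of 12 lower, and a minimum of 1 FPKM left 5 of 8 lower. S100a8 (-2.27) and S100a9 (-1.97) of neutrophils, Cd3d (-1.91) and Cd8a (-1.55) of T cells and Gzmb (-1.45) of cytotoxic cells were lower, while the B cell genes Cd79a (-0.03) and Cd79b (-0.26) were not called. Of the 22 genes listed for these cells, 14 were below 1 FPKM at both doses, so these values rest on little RNA.

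Genes of scar matrix were lower at the mid dose. Of 34 matrix genes, 22 were lower, none was higher and 12 were not called, with a median difference of -1.17 and median changes from vehicle of -0.48 at the low, -1.54 at the mid and -1.46 at the high dose. In the authors' deposited table of the low dose 13 were called below vehicle and 3 above, and in the authors' deposited table of the mid dose 31 below and none above. Col1a1, the alpha 1 chain of fibrillar type I collagen, stood at 5.23 FPKM against 14.98 at the low dose and at 1.60 against 13.1 at the mid dose, a fall of 1.52 (log2, SE 0.31) and of 3.03 (SE 0.18), with a difference of -1.51 (interval -2.21 to -0.81). Col1a2 (-1.04), Col5a2 (-1.17), the collagen cross-linker Lox (-1.97), elastin Eln (-1.31) and fibrillin Fbn1 (-1.24) were lower too.

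For Mmp12, Mmp13 and Spp1 the low dose lay above and the mid dose below vehicle, each called in the authors' deposited tables. The collagenase Mmp13 stood at 3.64 FPKM against 2.14 and at 0.259 against 1.87 (difference -3.62, interval -4.29 to -2.96). Osteopontin, Spp1, stood at 292 FPKM against 188 and at 65.7 against 165 (difference -1.96). Lumican, Lum, stood at 27.0 FPKM against 20.7 and at 6.605 against 18.1 (difference -1.84), and the authors' deposited table of the low dose did not call it. Mmp12, Mmp13, Spp1 and Lum were called with either error, and the exons of Spp1 and Mmp12 overlap another gene. Timp1, an inhibitor of matrix proteases, had a difference of -2.57 with a wide interval (-5.38 to 0.24) and was not called. Fn1, which hepatocytes also make, was not called (0.68, interval -0.35 to 1.71).

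Of 22 genes that mark stellate cells and myofibroblasts, the makers of scar collagen, 10 were lower, 1 was higher and 11 were not called, none of them with the error not rescaled. Pdgfra (-1.68), Tgfb2 (-2.23), S100a6 (-1.77), Cygb (-1.48) and Vim (-1.21) were lower. Smooth muscle actin Acta2 stood at 2.76 FPKM against 5 at the low dose and at 1.95 against 4.37 at the mid dose, and its difference of -0.30 (interval -0.88 to 0.27) was not called. The stellate marker Reln was not called (0.18, interval -0.85 to 1.20). The summed level of the list was -0.36 from vehicle at the low dose and -0.54 at the mid dose.

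Genes of cholangiocytes, the cells of the bile ducts, were lower at the mid dose than at the low dose. Of 14 tested, 9 were lower at the mid dose, none was higher and 5 were not called, with median changes from vehicle of 1.26 at the low, -0.24 at the mid and 0.20 at the high dose. In the authors' deposited table of the low dose 10 were called above vehicle and none below, and in the authors' deposited table of the mid dose 2 above and 3 below. Epcam, a surface marker of these cells and of liver progenitors, stood at 7.58 FPKM against 2.45 at the low dose and at 1.11 against 2.15 at the mid dose (difference -2.58, interval -3.18 to -1.99). Tff3, a secreted trefoil peptide, stood at 50.6 FPKM against 2.10 and at 4.19 against 1.83 (difference -3.40, interval -4.20 to -2.60).

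Krt19 (-1.64), Sox9 (-1.37), Prom1 (-2.13), Cldn4 (-3.67), Cldn7 (-2.03) and Muc1 (-1.31) were lower as well. The summed level of the 17 listed genes was 0.81 from vehicle at the low dose and -0.47 at the mid dose, and Spp1, which macrophages also make, gave 292 of the summed 462 FPKM at the low dose. Without Spp1 the sum was 1.17 above vehicle at the low dose and 0.61 above it at the mid dose, so the direction at the mid dose turns. Among the leading genes from no list, Mmp7, a protease of injured ducts, stood at 15.99 FPKM against 1.13 at the low dose and at 0.384 against 0.994 at the mid dose (difference -5.19, interval -6.07 to -4.31). Sprr1a, a cornified envelope protein, stood at 61.9 FPKM against 14.6 and at 2.09 against 12.7 (difference -4.70, interval -5.40 to -4.00). H19, a noncoding RNA of fetal liver, stood at 107 FPKM against 1.78 and at 7.91 against 1.56 (difference -3.56), above vehicle at both doses. The exons of Mmp7 and H19 overlap other genes.

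Most antioxidant genes were not called between the doses. Of 43 antioxidant genes and NRF2 targets, 7 were lower at the mid dose, 3 were higher and 33 were not called. Over all genes 6.57% were lower and 3.69% higher. The median difference of the list was 0.01, with 22 differences above 0 and 21 below. Cbr3, a carbonyl reductase, stood at 28.6 FPKM against 2.25 at the low dose and at 1.79 against 1.97 at the mid dose, and its change from vehicle was 3.67 (SE 0.25) at the low, -0.14 (SE 0.21) at the mid and 2.21 at the high dose. Its difference of -3.81 (interval -4.45 to -3.16) was called with either error. Nqo1, a quinone reductase, stood at 26.3 FPKM against 8.77 and at 9.46 against 7.67 (difference -1.29), again with the high dose, at 1.72 from vehicle, nearer the low dose at 1.59 than the mid dose at 0.30. Srxn1 (-2.13), Gsta1 (-1.75), Hmox1 (-1.36) and Gclc (-1.30) were lower, while Gsta4 (0.33), Gsta2 (0.26) and Gstm3 (-0.11) stood above vehicle at both doses and were not called. Gstt3 (2.01), Cat (0.95) and Gstt1 (0.82) were higher. Gstp2 (-4.42) came from no list and is a close copy of Gstp1 (-0.05, interval -0.48 to 0.39, not called), so its reads may be shared.

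Of 22 genes of endoplasmic reticulum and amino acid stress, 5 were lower and 17 were not called. Asns, the asparagine synthetase, stood at 3.49 FPKM against 0.531 at the low dose and at 0.245 against 0.465 at the mid dose (difference -3.64, interval -5.41 to -1.88). Trib3 (-1.20), Chac1 (-1.47) and Sesn2 (-1.01), which answer the same ATF4 programme, and Dnajb9 (-0.71) were lower. Psat1 of serine synthesis (-3.70) and Mthfd1l of mitochondrial folate metabolism (-3.43) were among the 15 leading lower genes, both above vehicle at the low dose and below it at the mid dose. The amino acid carrier Slc1a4 stood at 4.69 FPKM against 3.41 and at 0.610 against 2.98 (difference -2.75).

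Of 25 acute phase genes, 9 were lower, 1 was higher and 15 were not called, against 6.57% of all genes lower and 3.69% higher. Lcn2, an iron-chelating protein of injured liver, stood at 386 FPKM against 247 in vehicle at the low dose and at 30.3 against 216 at the mid dose, on opposite sides of vehicle (difference -3.48, interval -3.93 to -3.02). The metallothioneins Mt1 and Mt2 stood at 141 and 81.6 FPKM at the low dose against 209 and 117, and at 20.2 and 7.56 at the mid dose against 183 and 102, with differences of -2.61 and -3.24. These 3 genes were called with either error. Saa1 (-1.69), Saa2 (-1.83) and Orm2 (-1.50), which have close copies, were lower, and so was the iron hormone Hamp (-1.55), while the fibrinogen chains Fga (0.43), Fgb (0.31) and Fgg (0.42) were not called.

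Of 27 cell cycle genes, 6 were lower at the mid dose, none was higher and 21 were not called. Mki67, a marker of dividing cells, stood at 1.37 FPKM against 0.994 at the low dose and at 0.508 against 0.872 at the mid dose (difference -1.24, interval -1.78 to -0.70). The replication licensing genes Mcm5 (-1.30) and Mcm6 (-1.28) and the cell cycle inhibitor Cdkn1a (-1.85) were lower. Ccnd1 stood above vehicle by 1.90 at the low and 1.95 at the mid dose and was not called.

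Some genes of the periportal and pericentral zones and of xenobiotic metabolism were higher at the mid dose. Of 19 periportal genes, 4 were higher, none was lower and 15 were not called, although 14 had an unadjusted p under 0.05 and 14 were called higher with the group variances. Over all genes 2869 of 15368 had such a p, and the group variances called 1105 of 14330 higher. Cyp2f2 stood at 651 FPKM against 621 at the low dose and at 1582 against 542 at the mid dose (difference 1.48, interval 0.80 to 2.16). The urea cycle enzymes Ass1 (1.13) and Otc (1.02) and the histidine ammonia-lyase Hal (1.18) were the others. Of 22 pericentral genes, 5 were higher and 1, Slc1a4, was lower; glutamine synthetase Glul (1.15, interval 0.17 to 2.13) was not called. Of 38 genes of xenobiotic metabolism, 10 were higher, among them Sult2a8 (1.41), Cyp2c50 (1.13) and Cyp3a25 (0.84), and 1, Cyp2a4, was lower.

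Of 24 mitochondrial respiratory chain genes, 3 were higher, namely Sdhb (0.67), Cox5a (0.67) and Uqcrfs1 (0.62), and 10 were called with the group variances. Of 20 secretory genes of hepatocytes, 1 was higher, Apoc3 (1.03), and over all genes 3.69% were higher. None of 19 endothelial genes was called by the normal test, with 2 at an unadjusted p under 0.05 and 2 called higher with the group variances, and their summed level was -0.45 from vehicle at the low and -0.44 at the mid dose. None of 20 ribosomal protein genes was called by the normal test, with 2 at an unadjusted p under 0.05 and 2 called lower with the group variances. Counts of 2 among 19 or 20 genes lie near the shares over all genes under the group variances, 1105 higher and 1310 lower of 14330. Of 8 tested blood cell genes, Hba-a1 (0.74) and Alas2 (1.12) were higher and the platelet gene Pf4 (-1.57) was lower. Neither of the 2 tested pancreas genes was called by the normal test or had an unadjusted p under 0.05, and 12 of the 14 listed were below 1 FPKM at both doses. The summed levels of macrophage, lymphoid and cholangiocyte markers moved with the differences described above, and their part in the other results was not tested.

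For 137 genes the doses lay on opposite sides of vehicle, each called against vehicle in the authors' deposited table and called in the difference. The low dose lay above and the mid dose below vehicle for 103 of the 171 lower genes called against vehicle at both doses. The reverse held for 34 of the 147 such higher genes. The first set includes Cyp2a4, Mmp7, Sprr1a, Gstp2, Lcn2, Abcc4, Igfbp1, Ccl2, Epcam, Cldn4, Spp1, Tlr2, Icam1 and Scd2, and the reverse set includes Acacb, Elovl3, Elovl5, Mup20, Cyp4a12a, Cyp2u1 and Cd163. The error not rescaled called only 65 genes in all, so most of the 137 were not called with it. Among those listed, Cldn4, Tlr2, Scd2, Elovl5, Mup20, Cyp4a12a and Cd163 were not.

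The order of the 3 doses differed between gene groups. Nr0b2 stood 1.87, 2.55 and 2.63 above vehicle at the low, mid and high dose, and Slc51b 5.38, 6.01 and 6.08. Matrix and inflammatory medians lay close together at the mid and high doses and apart from the low dose. By contrast the medians of bile acid synthesis (-0.45, -0.11 and -0.53), fatty acid synthesis and growth hormone dependent genes were highest at the mid dose. Slc10a1, Mup7, Mup3 and Slco1a1 were lower at the high dose than at the low dose, at -3.35, -4.74, -5.29 and -6.35 from vehicle. The mid and high doses were not tested against each other here.

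**Figure D5:**
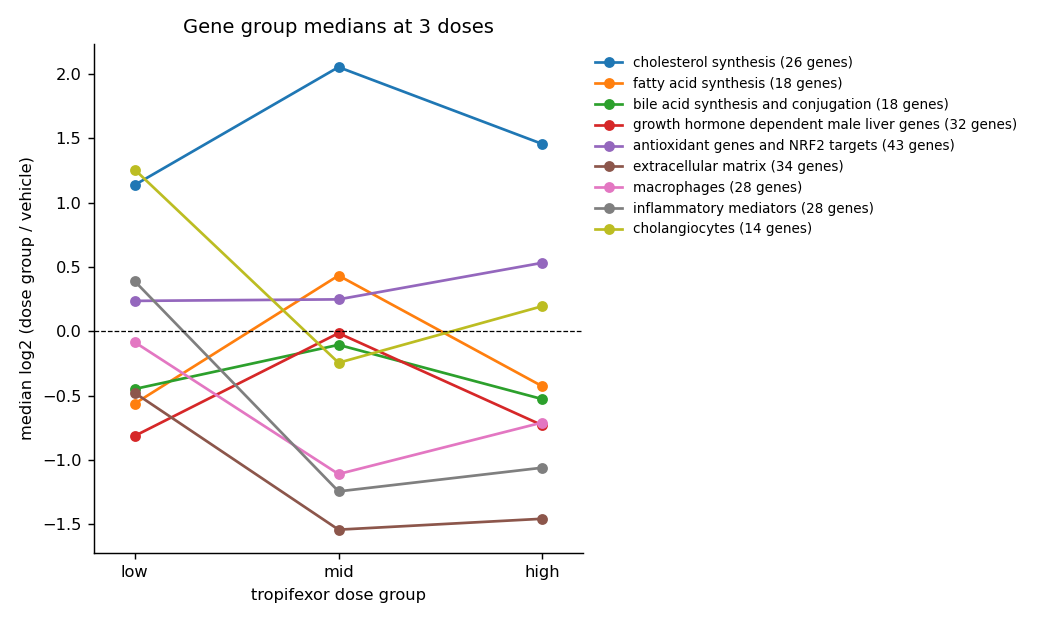
Lines join the median log2 change from vehicle of the tested genes of 9 groups at the low, mid and high dose of tropifexor; all points share the same vehicle mice, and the medians carry no error. Cholesterol synthesis peaks at the mid dose (2.06), while inflammatory mediators pass from 0.39 at the low to -1.25 at the mid and -1.06 at the high dose.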

How the data were processed

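Frozen livers of male mice gave RNA by Trizol, which went into libraries of the TruSeq Stranded mRNA type, per the labels' protocols. The submitters' processing notes name the build GRCm38 and, with no roles, Cuffdiff, Cuffnorm, Cufflinks 2.2.1, STAR 2.5.1b and bcl2fastq. The FPKM are the authors' deposited group values, 1 for each group of 4 mice, per the file headers. The log2 fold changes and the test statistic, a score, are the authors' deposited Cuffdiff values, and so are the p-value and the q-value of each gene.

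The log2 ratio of each dose to vehicle was computed from the FPKM with no pseudocount, and the ratio at the low dose was subtracted from that at the mid dose. Genes entered with status OK in both tables, and with a ratio that matched the deposited fold change within 0.01. Each ratio was given the error implied by the deposited statistic, divided by the median factor that brings that statistic to the deposited p (taken over p from 0.0002 to 0.9). The variances of the 2 ratios were added, which counts the shared vehicle in both and widens the error. The p is that of a two-sided normal test, adjusted by the Benjamini-Hochberg method, and an interval is the normal 95% interval. An exact test needs values per mouse, so none could be made. The mid-dose table was matched to its vehicle group from the values. Counts against vehicle use the deposited q under 0.05. Where a symbol occurred more than once, the entry with the higher FPKM was used. The test was tested on simulated data.

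Genes were named by a rule: the 15 largest called differences in each direction with at least 1 FPKM at either dose, every called member of 31 gene lists, and 25 genes chosen by name. The comparison, lists and rule were chosen with earlier results of these data known, and uncalled members are given as examples. Some genes that the rule names are not reported here. The growth hormone list mixes male and female genes. The NF-kB and antioxidant motifs and the 4 promoters printed were chosen after these differences had been seen; the nuclear receptor motif was not. Exon overlaps come from GENCODE release M21. Alternatives were the error without rescaling, group variances solved over the deposited tables without the shared vehicle, lean-control tables, centring, a minimum of 1 FPKM, log2 of FPKM + 1, and a minimum difference of 1. Python 3.11.15, numpy 2.4.6, pandas 2.3.3, scipy 1.17.1 and matplotlib 3.10.9 were used.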

Additional observations from a re-analysis of the deposited data

Results flagged for a closer look

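For 137 genes the low-dose and the mid-dose groups lay on opposite sides of vehicle, each called against vehicle in the authors' deposited table, and the difference itself was called by the normal test with Benjamini-Hochberg adjustment. Of the leading genes, those with the low dose above and the mid dose below vehicle were Cyp2a4 (difference -6.12), Mmp7 (-5.19), Sprr1a (-4.70), Gstp2 (-4.42), Rasal1 (-4.09), Abcc12 (-3.89), Psat1 (-3.70), Mmp13 (-3.62), Lcn2 (-3.48), Fosl1 (-3.46) and Mthfd1l (-3.43). Those with the low dose below and the mid dose above vehicle were Cyp2u1 (2.62), C4a (2.63), Mup16 (2.87), Cd163 (2.93) and Acpp (3.01). Rasal1, Psat1 and C4a were not called with the error not rescaled, nor were Mup16, Cd163, Fosl1 and Mthfd1l.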

How the results depend on the processing

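The number of called genes follows the error. Without rescaling of the error 65 genes were called, 12 higher and 53 lower, all of them among the 1577. With group variances that leave out the shared vehicle 2415 were called, 1105 higher and 1310 lower, including 1431 of the 1432 called genes that this alternative could test. The higher share of the called genes was 36.0% in the main comparison, 18.5% without rescaling and 45.8% with the group variances, against 23.8% with a minimum difference of 1, 42.7% with the lean-control tables, 39.3% with a minimum of 1 FPKM, 39.0% with log2 of FPKM + 1 and 33.5% with centring. The lean-control tables called 1519 genes, and kept the call and direction of 1345 of the 1442 they could test. The reference group nearly cancels in the difference, so these tables compare the same mid-dose and low-dose mice. They mainly change the error and are no outside check of direction. A minimum difference of 1 left 262 genes higher and 840 lower. Leaving out called genes with a q over 0.5 at both doses in the authors' deposited tables, a choice made after the results were seen, left 1542 genes, or 56 without rescaling. At a deposited q under 0.01 the authors' deposited table of the low dose called 1181 genes. No named gene, list count or total reversed its direction under these alternatives. Most of them reuse the same difference and change the error, the threshold or the genes kept, so they could not reverse it. Without rescaling, 207 results for named genes became weaker and 46 stayed the same. The summed bile duct markers turned from -0.47 to 0.61 at the mid dose without Spp1. Leaving out single mice was not run, because the tables hold 1 value for each group. No paired analysis was possible because the tables hold no values per mouse. Depth is unknown, so low FPKM values carry an error that could not be checked: 190 of the called genes were below 1 FPKM at both doses.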
